A study of Mus musculus with 15 samples.

Results

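The Tripartite motif (Trim) family comprised every promoter whose annotated transcript belongs to a mouse gene with a symbol of Trim followed by a number. It held 73 promoters of 66 genes among the 25881 promoters in the deposited annotation. Of these, 41 promoters of 36 genes had a coverage score above 100, the authors' limit for high coverage in the region from −1000 to 1000 bp of the transcription start site (TSS), and values below are for these unless stated. Just inside the limit lay Trim71, Trim9 and a start of Trim66 with scores of 100.25 to 102.75, and just outside it Trim14, Trim43c and Trim34b with 98.25 to 99.25. The 32 promoters outside it are named with their class only. Symbols came from RefSeq transcripts for 72 promoters. The annotated transcript of Trim23 is not in the RefSeq table used here and was matched by a GENCODE start on the same strand within 50 bp.

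Nucleosome positions were measured by ChIP-MNase, in which an antibody first pulls down long pieces of chromatin and micrococcal nuclease then trims them to single nucleosomes. Dendritic cells (DCs), antigen-presenting cells of the immune system, were differentiated in culture from progenitor lines of mouse bone marrow and were non-stimulated or treated for 1 h with 100 ng/ml LPS, a bacterial cell wall component. 3T3 cells, an established line of mouse fibroblasts, were non-stimulated or treated for 1 h with 5 ng/ml TNF-α, an inflammatory cytokine. These 4 H3K4me1 sets each pool 2 replicates and carry no replicate error. H3K4me1 is a histone mark of promoter flanks and enhancers, so each value describes nucleosomes of chromatin that bears the mark. A further 8 single H3K4me1 libraries came from control fibroblasts and from fibroblasts with stable knock-down of Brg1 and Brm, the catalytic subunits of the BAF nucleosome remodelling complex, by a single shRNA, in both states with 2 libraries each. Sorted GFP-expressing pools of transduced cells were used for the knock-down. TNF-α-treated fibroblasts without knock-down also gave 2 libraries with an antibody to pol-II S7P and 1 to pol-II S5P, phosphorylated forms of RNA polymerase II. The study calls these replicates biological, whereas the labels do not say which cultures they came from, and p-values measure the spread between these libraries.

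Trim proteins typically carry a RING finger, B-box and coiled-coil at the N-terminus, though some lack the RING, and most are E3 ubiquitin ligases. Families of Trim proteins are told apart by the C-terminal part, of which the PRY-SPRY domain is the most frequent and binds pathogen or host targets. Many Trim genes with this domain lie in gene clusters, are transcribed in response to interferon and act in antiviral defence, while the NHL, COS and PHD-bromodomain classes include regulators of development, muscle, the cytoskeleton and chromatin. A promoter in use typically has a nucleosome-depleted region (NDR) before the TSS and a regular row of nucleosomes after it.

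Sequences of all interferon-linked Trim genes on chromosome 7 are shown, with or without the motif below and 1 start for Trim12c, because 7 of the 8 high-coverage promoters of interferon-linked Trim genes lie there. Those of Trim6, Trim34a and Trim34b had a score under the limit. Read from the reference genome of the mm9 build, each runs from 60 bases before to 20 bases after the TSS, 5′ to 3′ on the strand of the gene. Capitals mark a match to the ISRE-like motif, GAAA then 2 bases of any kind then GAAA, on either strand. An ISRE is the element through which interferon-activated factors bind, and a match to its letters is a description and no binding site by itself.
Trim21, chr7:109713964-109714043, minus strand: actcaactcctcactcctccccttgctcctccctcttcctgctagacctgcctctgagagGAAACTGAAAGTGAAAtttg
Trim6, chr7:111367250-111367329, plus strand: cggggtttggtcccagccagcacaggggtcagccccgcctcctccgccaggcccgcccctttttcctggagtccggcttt
Trim34a, chr7:111392912-111392991, plus strand: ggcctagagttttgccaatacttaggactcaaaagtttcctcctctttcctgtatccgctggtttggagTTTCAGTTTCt
Trim12a, chr7:111463990-111464069, minus strand: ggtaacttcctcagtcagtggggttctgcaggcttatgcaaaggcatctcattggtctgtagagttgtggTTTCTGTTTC
Trim34b, chr7:111477926-111478005, plus strand: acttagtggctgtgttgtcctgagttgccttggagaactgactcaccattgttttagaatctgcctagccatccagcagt
Trim12c, chr7:111501844-111501923, minus strand: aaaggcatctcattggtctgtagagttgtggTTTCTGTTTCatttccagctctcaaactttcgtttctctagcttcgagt
Trim30b, chr7:111507141-111507220, minus strand: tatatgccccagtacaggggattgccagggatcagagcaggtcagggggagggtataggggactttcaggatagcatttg
Trim30a, chr7:111613688-111613767, minus strand: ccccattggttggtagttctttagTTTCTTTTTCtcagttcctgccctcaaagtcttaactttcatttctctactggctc
Trim30d, chr7:111656344-111656423, minus strand: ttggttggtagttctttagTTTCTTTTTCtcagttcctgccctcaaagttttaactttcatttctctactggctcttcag

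The ISRE-like motif was found from 250 bases before to 50 after the TSS at 9 of the 73 Trim promoters, or 12.3%, against 3.46% of the 25738 promoters for which sequence could be read. All 9 lie among the 15 promoters of the 14 interferon-linked genes, a list of Trim genes known to answer to interferon. None of the other 58 held it. Besides the promoters above these are Trim14, Trim26 and the second annotated start of Trim12c. Trim21 held 2 overlapping matches that begin at the first and seventh base of the transcript. At Trim30b, Trim6 and Trim34b no match was found in this window. Over their 300 bases the promoters of Trim30a and Trim30d were 92.3% identical, and those of Trim12a and Trim12c 82.7%. The authors kept only fragments with a single match among promoter regions, so fragments common to 2 copies would be dropped. The values of all 4 promoters are uncertain to that extent.

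A GAS-like motif, TTC and GAA with 3 bases between, was at 8.22% of Trim promoters and 7.81% of all. TATAAA was at 11% and 12.7%, and GGGCGG, the core of an Sp1 site, at 39.7% and 45.3%. CpG islands (GC above 50% and CpG at over 0.6 times the number its bases predict, within 200 bp of the TSS) covered 37.0% of Trim promoters and 48.3% of all. Among promoters of high coverage the shares were 31.7% (13 of 41) and 56.2%.

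The occupancies are relative values without read counts, so counting intervals are not given, and the share of the 200 bins of 10 bp that hold a fragment stands in for depth. Averaged over high-coverage promoters this share lay between 82.0 and 90.2% for pooled sets, between 63.5 and 78.1% for single H3K4me1 libraries, and between 69.2 and 81.2% for pol-II. The cell types were checked by marker genes, with a promoter called patterned above 0.5 on the scale defined next. Of 11 high-coverage promoters of DC marker genes, 7 were patterned in both DC sets, 1 in non-stimulated and 2 in TNF-α-treated fibroblasts. Of 7 fibroblast marker promoters 0, 3, 4 and 2 were patterned in non-stimulated DCs, LPS-treated DCs, non-stimulated fibroblasts and TNF-α-treated fibroblasts. Expression in non-stimulated cells, as the authors annotated it, was active for 11 of 11 DC marker promoters in DCs and 1 of 11 in fibroblasts, and for 11 of 11 fibroblast marker promoters in fibroblasts and 4 of 11 in DCs.

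Patterning was quantified after the study's methods as the resemblance of a promoter's occupancy profile to the mean profile of active promoters of the same cell type, here on a scale where 0 is no resemblance and 1 is the amplitude of that mean profile. A promoter above 0.5 is called patterned here. In non-stimulated DCs 18 of 41 Trim promoters (43.9%) were patterned, against 55.1% of all 13559 high-coverage promoters. In LPS-treated DCs the count was 23 (56.1% against 55.9%), in non-stimulated fibroblasts 18 (43.9% against 52%) and in TNF-α-treated fibroblasts 20 (48.8% against 53.1%). The median level of the Trim promoters was 0.34, 0.54, 0.17 and 0.40 in that order, and that of all promoters 0.66, 0.70, 0.56 and 0.60. These medians have no replicate. Over the 8 single H3K4me1 libraries the Trim median ran from −0.22 to 0.45 (SD 0.24), and that of all promoters from 0.37 to 0.54. Patterning in every pooled set was found at 10 Trim promoters (24.4% against 25.9%) and in none of them at 8 (19.5% against 17.9%).

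**Figure D1:**
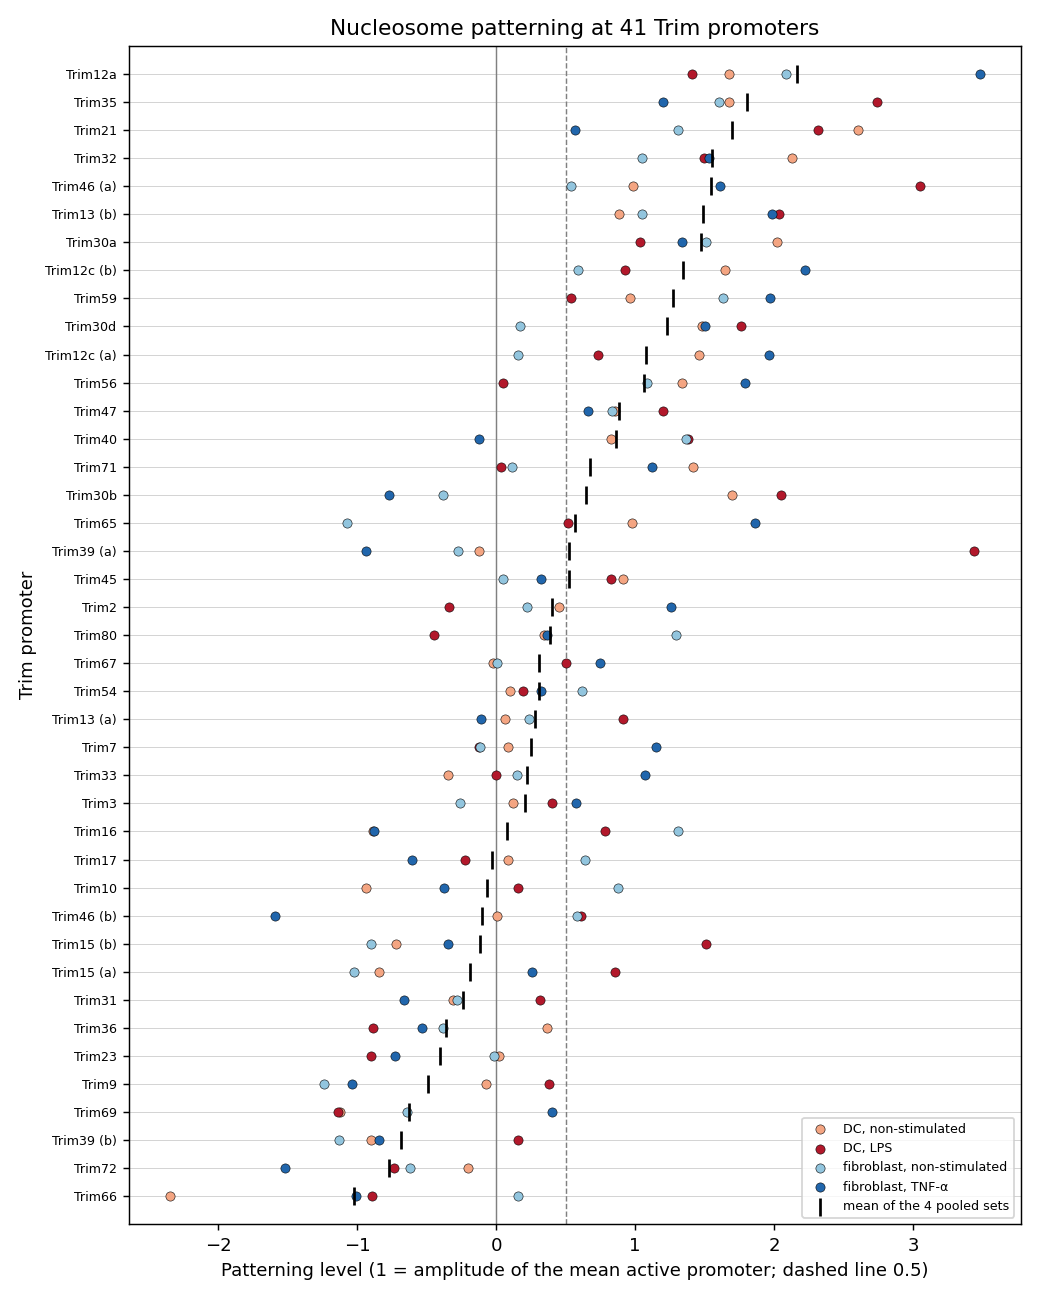
Each row is a Trim promoter of high coverage, ordered by its mean over the 4 pooled sets (black bar), and the horizontal axis is the patterning level in each pooled set (coloured points, 1 set each and no replicates; "a" and "b" mark annotated starts of the same gene). Trim12a, Trim35 and Trim21 have the highest means (2.16, 1.81 and 1.70) and Trim66 the lowest (−1.02), and the points of many rows spread over more than 1 unit. The fibroblast points of Trim12a, which raise its mean, rest on a low share of covered bins.

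Members were also divided by expression as the authors annotated it. Of 21 Trim promoters active in non-stimulated DCs 13 were patterned there (61.9%, against 65.5% of all active promoters), and 2 of 7 silent ones (28.6% against 34.4%). After LPS the active Trim promoters gave 15 of 21 (71.4% against 65.4%). In non-stimulated fibroblasts 9 of 16 active (56.2% against 67.4%) and 3 of 6 silent Trim promoters (50% against 28.5%) were patterned, and after TNF-α 13 of 16 active ones (81.2% against 68.5%). Of the 13 with a CpG island, 6 were patterned in non-stimulated DCs (46.2%, against 68.7% of all CpG island promoters) and 5 in non-stimulated fibroblasts (38.5% against 67.8%). In TNF-α-treated fibroblasts the shares were 9 of 13 (69.2%) and 68.8%. Promoters of a family share sequence and neighbours, and these shares carry no test.

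By domain class, PRY-SPRY genes accounted for 18 of the 41 promoters, 9 of which were patterned in non-stimulated DCs and 8 in non-stimulated fibroblasts (50 and 44.4%, near the 55.1 and 52% of all promoters). Of the 6 COS promoters (microtubule-binding Trim proteins of neurons and muscle) 1 and 3 were patterned in those sets, of the 4 NHL promoters 2 and 1, and of the 2 PHD-bromodomain promoters 0 and 0. Transmembrane Trim proteins gave 2 and 2 of 3 promoters. The remaining 8 promoters, of Trim31, Trim40, Trim56, Trim65, Trim23, Trim45, Trim16 and Trim80, had levels from −1.08 to 1.37 in those sets, both ends in non-stimulated fibroblasts.

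All 8 high-coverage promoters of interferon-linked genes were patterned in non-stimulated DCs, and 7, 5 and 7 of them in the other sets in the order above, beside the 55.1, 55.9, 52 and 53.1% of all promoters. Of these 8, 7 were active in DCs, where 65.5% of all active promoters were patterned. Of these 8 promoters, 7 lie on chromosome 7 and include the 2 annotated starts of Trim12c, 9 bp apart, whose profiles overlap. Trim21, a cytosolic antibody receptor and E3 ligase, starts at position 109713983. Its level was 2.61 in non-stimulated DCs, 2.31 after LPS, 1.31 in non-stimulated fibroblasts and 0.57 after TNF-α. In the 8 single fibroblast libraries it lay between 1.08 and 3.55 with a median of 2.15, and pol-II libraries gave 2.70 and 1.21 (S7P) and 0.88 (S5P). It was thus above 0.5 in all 15 libraries, as were 3.38% of all high-coverage promoters and no other of the 41 Trim promoters.

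The depleted stretch of Trim21 was centred on the start itself. In the 4 pooled sets the emptiest 150 bp within 300 bp of the TSS began 70 or 80 bp before it and held 0.00 to 0.33 times the mean occupancy of the library. This stretch covers the 2 overlapping ISRE-like matches printed above. The NDR ratio, the occupancy from −150 to 0 bp over that from −1000 to −500 bp, was 0.23 and 0.13 in the DC sets, and 0.80 and 1.01 in the fibroblast sets.

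Trim30a, which restrains Toll-like receptor signalling, had levels of 2.02, 1.04, 1.51 and 1.34 in non-stimulated DCs, LPS-treated DCs, non-stimulated fibroblasts and TNF-α-treated fibroblasts, and NDR ratios of 0.25, 0.53, 0.22 and 0.21. Its near-identical copy Trim30d had 1.48, 1.76, 0.17 and 1.5. In the 8 single fibroblast libraries Trim30d lay between 0.89 and 2.73, so that every such library exceeded the pooled non-stimulated set. Trim21 and Trim30d were the 2 of 41 Trim promoters above 0.5 in all 8 (4.88%, against 6.19% of all promoters). Trim30a ranged from −0.07 to 2.20 there. The ISRE-like match of Trim30a begins 36 and that of Trim30d 41 bases before the start. Both lay inside the emptiest 150 bp in non-stimulated DCs (−140 to 10 bp and −170 to −20 bp, at 0.28 and 0.29 times the mean). After LPS the stretch of Trim30a, −270 to −120 bp, did not hold its match, while that of Trim30d, −130 to 20 bp, did. In the pooled fibroblast sets both matches lay inside.

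Trim30b, a further PRY-SPRY gene of this cluster, was high in DCs and low in fibroblasts. Its levels of 1.70 and 2.05 in the DC sets stood against −0.38 and −0.77 in the fibroblast sets, and the 8 single fibroblast libraries ranged from −2.87 to 1.44 with a median of −0.88. In non-stimulated DCs the 150 bp from −40 to 110 bp held 0.01 times the mean occupancy and the highest 50 bp after the start, centred at 175 bp, stood at 3.97 times the mean. In non-stimulated fibroblasts the highest 50 bp was centred at 25 bp with 1.71, the edge of a peak that lies on the start in the drawn profile. Trim30b counted as active in DCs, at an expression value of 0.083 close to the limit for active, and as silent in fibroblasts.

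Trim12a and Trim12c, rodent relatives of the retroviral restriction factor TRIM5, were patterned in DCs at 1.68 and 1.41 for Trim12a and at 1.46 and 0.73 for the start of Trim12c at position 111501863. In both, the emptiest 150 bp in non-stimulated DCs (−110 to 40 bp and −150 to 0 bp) held 0.30 and 0.23 times the mean. The ISRE-like match lay inside the stretch for both, and also after LPS (−90 to 60 bp at both). In both pooled fibroblast sets the match lay outside it. The stretches there were −210 to −60 and −160 to −10 bp at Trim12a, and −240 to −90 and −190 to −40 bp at Trim12c. In pooled fibroblasts the Trim12a level was higher still, at 2.08 and 3.48, but the profile there rested on few fragments. From −210 to −60 bp the mean occupancy was 0.00 in the non-stimulated set, and the highest 50 bp after the start stood at 4.90 times the library mean. Trim56, an E3 ligase of antiviral signalling on chromosome 5 and the other interferon-linked gene of high coverage, had levels of 1.34, 0.05, 1.09 and 1.79, and lay between 0.30 and 2.03 in the single libraries.

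**Figure D2:**
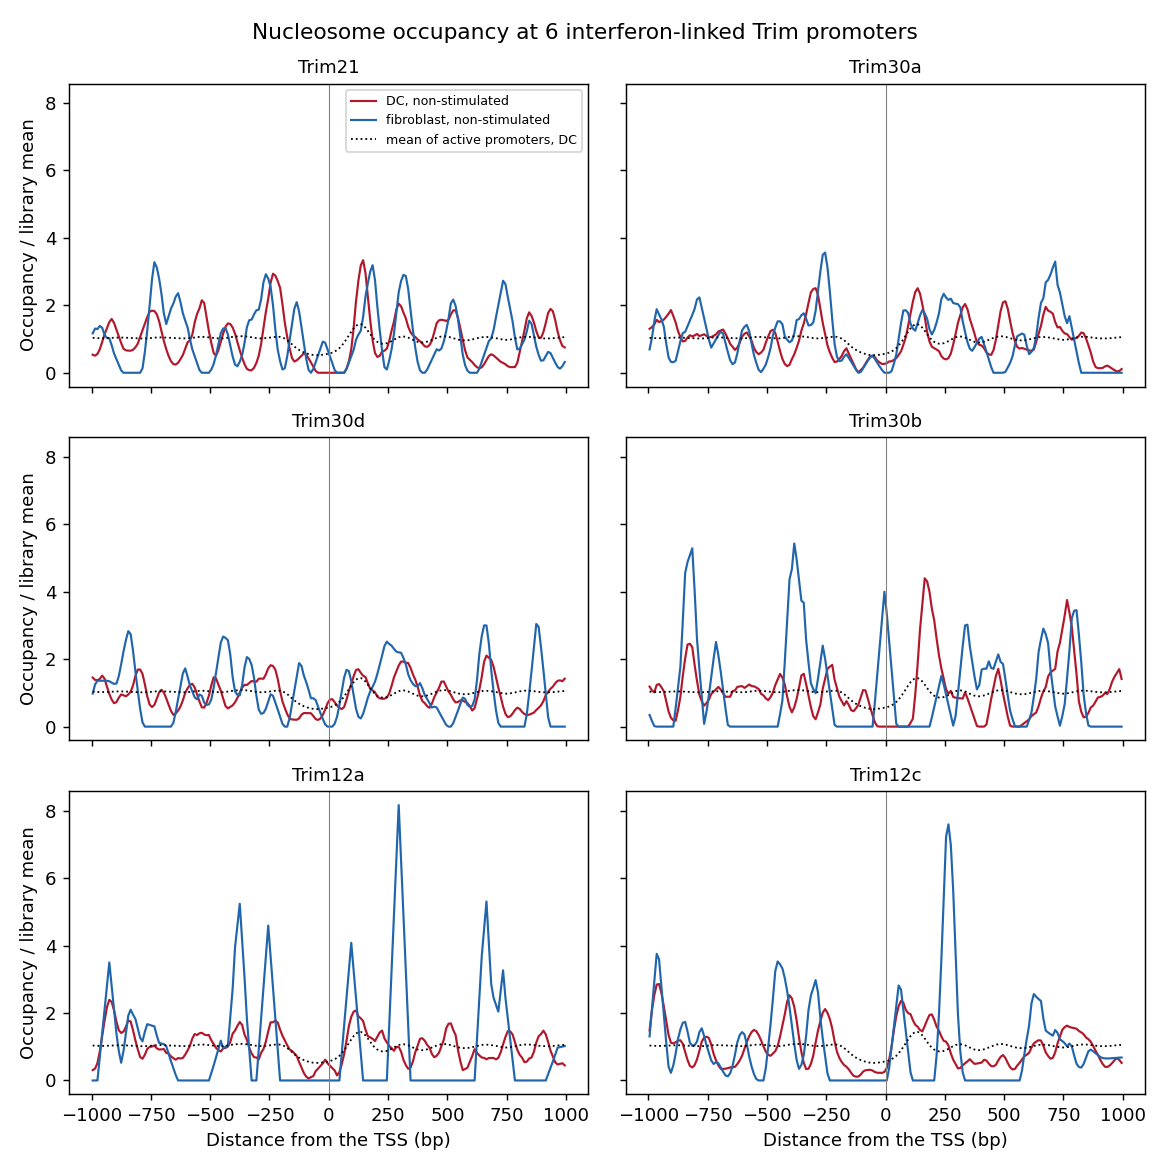
Occupancy divided by the mean of the library (vertical axis) against distance from the TSS in bp (horizontal axis) at 6 interferon-linked Trim promoters in non-stimulated DCs (red) and non-stimulated fibroblasts (blue), with the mean of active DC promoters dotted, from 1 pooled set each. The DC profiles fall to near 0 around the TSS of Trim21 and Trim30b, while the fibroblast profiles of Trim12a and Trim12c break into tall separate peaks where few bins hold fragments.

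Coverage itself differed between the cell types at these promoters. In both DC sets every bin of Trim12a and of both starts of Trim12c held a fragment (100%). In the pooled fibroblast sets the shares were 50.5 and 46.5% for Trim12a, and 69 and 68.5% for Trim12c. The 8 single fibroblast libraries gave 6 to 16.5% at Trim12a and 35 to 70.5% at Trim12c, whereas their means over all high-coverage promoters lay between 63.5 and 78.1%. Trim30b had 90 and 95% in DCs, 61 and 74% in pooled fibroblasts and 25 to 44.5% in the single libraries. At Trim66 the order was the other way round, with 59 and 68.5% in DCs and 89 and 85.5% in fibroblasts.

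A limma fit of these shares, chosen after the values had been seen and centred on each library's mean, compared the 2 DC with the 2 pooled fibroblast sets. It called 12.2% of all high-coverage promoters at an adjusted p below 0.05, 5.98% higher and 6.26% lower in DCs, and 8 of 41 Trim promoters, 4 in each direction. Relative to the library means, Trim12a was 48.0 ± 4.85 (SE) percentage points higher in DCs (limma, adjusted p = 3e-06), Trim12c 27.8 ± 4.91 at both starts (adjusted p = 0.00069) and Trim30b 21.5 ± 5.84 (adjusted p = 0.019). Trim66 fell by 27 ± 5.30 points (limma, adjusted p = 0.0017), and Trim10 and both starts of Trim15, neighbours on chromosome 17, by 16.2 to 17.5 points (limma, adjusted p = 0.032 to 0.039). Without the centring limma called 0 promoters (2796 at an unadjusted p below 0.05), and the adjusted p of Trim12a and Trim12c was 0.11. With 1 set left out, Trim30b lost its call without LPS-treated DCs or without non-stimulated fibroblasts (limma, adjusted p = 0.18 and 0.22) and Trim66 without non-stimulated DCs (0.063). Trim10 lost it without non-stimulated DCs or TNF-α-treated fibroblasts (0.39 and 0.31), and the start of Trim15 at position 37004155 in all 4 such fits and that at 37004132 in 3, all but the fit without TNF-α-treated fibroblasts. Trim12a and both starts of Trim12c kept theirs in each. Every such fit leaves 1 set in an arm, which is assumed to vary like the 2 sets of the other cell type, and so gives no independent support.

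The coverage score was taken over both cell types, so a promoter can pass it through DCs alone. Without that filter limma called 14 of 73 Trim promoters (19.2%) and 19% of all promoters. Among these 14, Trim12a, Trim12c and Trim66 remained, whereas Trim30b, Trim10 and Trim15 did not (limma, adjusted p = 0.060 to 0.083). Of the marker lists, 1 of 11 DC promoters (Itgam) and 3 of 7 fibroblast promoters (Fn1, Prrx1 and a start of Pdgfra) were called higher in DCs by the same fit. Of these 3, Fn1 was annotated active in both cell types. Reads of both cell types were aligned to the same reference genome. How well this genome represents each cell line at these genes was not tested. Neither was the part that dropping fragments common to near-identical copies has in these values. The paper states that recovery by ChIP is uneven between loci, and the amount of H3K4me1 at these promoters in each cell type was not tested either.

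**Figure D3:**
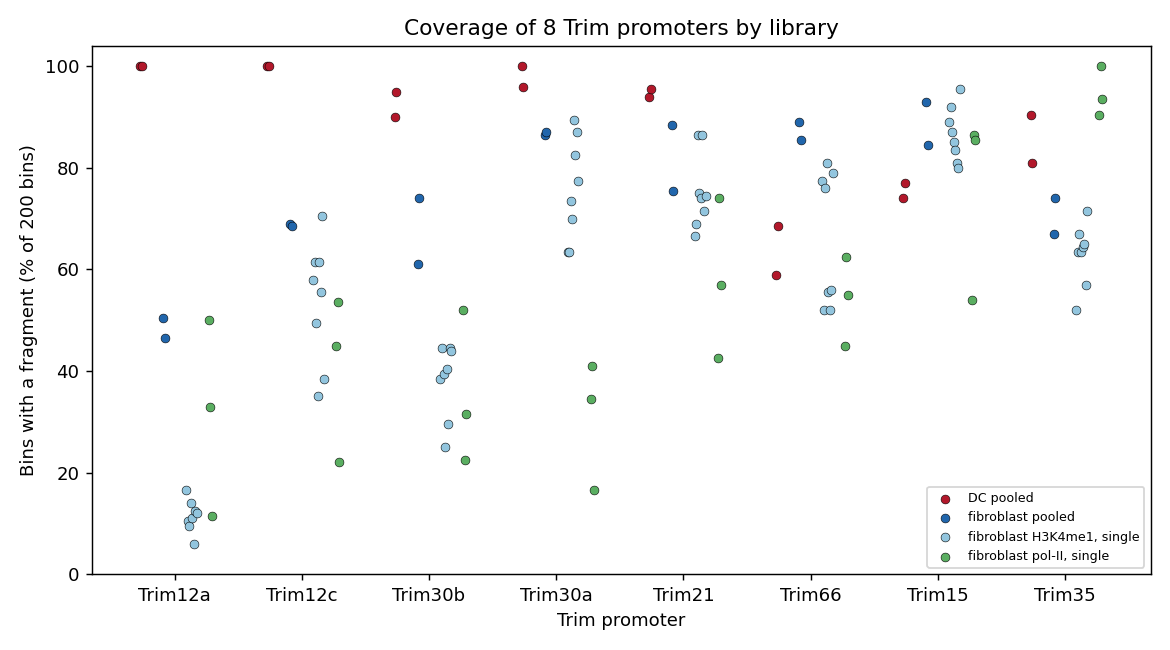
Share of the 200 bins with a fragment (vertical axis, percent) at 8 Trim promoters, 1 point a library, for pooled DC sets (red), pooled fibroblast sets (dark blue), single fibroblast H3K4me1 libraries (light blue) and pol-II libraries (green). Trim12a is at 100% in pooled DC sets, lower in pooled fibroblasts, and at 16.5% or less in every single H3K4me1 library. Single libraries cover fewer bins on average than pooled sets. Trim66 and Trim15 are higher in pooled fibroblasts than in DCs.

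For the patterning level itself, the limma fit of 2 DC against 2 pooled fibroblast sets called 0% of all promoters and 0 of 41 Trim promoters. At an unadjusted p below 0.05 it listed 1053 promoters (7.77%) and 2 Trim promoters (4.88%), Trim30b and Trim21. Trim30b was higher in DCs by 2.45 ± 0.60 (SE; limma, adjusted p = 0.60) and Trim21 by 1.52 ± 0.62 (adjusted p = 0.64), with every DC value above every pooled fibroblast value in both. The 8 single fibroblast libraries, which are no part of this fit, overlapped the DC values at Trim21 (1.08 to 3.55) and lay below them at Trim30b (−2.87 to 1.44). The other largest differences toward DCs that kept their sign in both states were 2.26 at the start of Trim39 at position 36408378, 1.29 at Trim9, 1.02 at Trim15 (position 37004155) and 0.94 at Trim46 (position 89049121). Toward fibroblasts they were −1.24 at Trim12a, −1.05 at Trim59, −1.01 at Trim69, −0.88 at Trim80, −0.79 at Trim33 and −0.32 at Trim54.

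The highest mean levels outside the chromosome 7 group belonged to Trim35, Trim32, Trim46 and Trim13, the last 2 of which have several starts and are given with them. Trim35, a PRY-SPRY gene with a CpG island on chromosome 14, had levels of 1.68, 2.74, 1.61 and 1.2, but the single libraries spanned −3.91 to 5.11 with 52 to 71.5% of bins covered. Trim32, an NHL ligase mutated in muscular dystrophy, had 2.13, 1.49, 1.05 and 1.53, with NDR ratios of 0.067, 0.93, 0.026 and 0.30. Its single libraries ranged from −0.76 to 2.79. Other NHL genes were lower. Trim71, a regulator of stem cells, had 1.41, 0.04, 0.11 and 1.12, Trim2 had 0.46, −0.34, 0.22 and 1.26, and Trim3 had 0.12, 0.41, −0.26 and 0.58. All 4 NHL promoters were above 0.5 after TNF-α, in 1 pooled set where 53.1% of all promoters were. In non-stimulated DCs, LPS-treated DCs and non-stimulated fibroblasts 2, 1 and 1 of the 4 were.

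At the lower end stood Trim66, a PHD-bromodomain gene known mainly from testis, with levels of −2.35, −0.90, 0.16 and −1.01. It was below 0 in all 8 single fibroblast libraries (−1.60 to −0.14). Trim33, the other PHD-bromodomain gene of high coverage and a corepressor in TGF-β signalling, had −0.35, −0.00, 0.15 and 1.07 despite a CpG island and active expression in both cell types. Trim72, a membrane repair protein of muscle, had −0.20, −0.74, −0.62 and −1.52, and Trim69 had −1.13, −1.14, −0.64 and 0.40. Trim9, of the brain, had −0.07, 0.38, −1.24 and −1.04. Trim23, whose protein carries an ARF domain beside its RING, was active in both cell types with a CpG island, yet its levels were 0.02, −0.90, −0.01 and −0.73 and its NDR ratios 1.00 to 1.76. The start of Trim39 at position 36408949, given with the other start below, was also among the 6 lowest means.

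NDR ratios had a median over the 41 Trim promoters of 0.81, 0.76, 0.79 and 0.62 in the 4 pooled sets, and of 0.65, 0.61, 0.63 and 0.59 over all. Trim45 had no fragment from −150 to 0 bp in any pooled set, a ratio of 0.00 in all 4, with levels of 0.91, 0.82, 0.05 and 0.32 and 60 to 85% of its bins covered. Its single libraries ranged in ratio from 0.00 to 1.19 with a median of 0.00. Its annotated expression was low in both cell types, below the limit for an active promoter.

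After LPS, 10 of 41 Trim promoters were higher by over 1 (24.4%, against 18% of all) and 3 were lower by over 1 (7.32% against 17.1%). These comparisons have 1 pooled set on each side and no test, and replicate libraries of fibroblasts differed by 0.90 to 1.11 in the median Trim promoter. The largest rise in value was at the start of Trim39 at position 36408378, from −0.12 to 3.44, where the 50 bp centred at 105 bp held 6.69 times the mean after LPS, against 1.06 before. The emptiest 150 bp of this start held 0.03 times the mean before LPS (−90 to 60 bp) and 0.00 after it (−120 to 30 bp), and 0.17 and 0.00 in the pooled fibroblast sets. Its pooled fibroblast values were −0.27 and −0.94. After TNF-α the highest 50 bp within 300 bp after this start held 0 times the mean, so no fragment lay there. The lowest difference was −1.38 at Trim71. Trim46 at position 89049121 went from 0.99 to 3.05, both starts of Trim15 from −0.84 and −0.72 to 0.85 and 1.51, and Trim16 from −0.89 to 0.78. On the other side Trim56 went from 1.34 to 0.05. Of the 8 interferon-linked promoters none was higher by over 1.

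In pooled fibroblasts TNF-α gave 11 Trim promoters higher by over 1 (26.8% against 17.3%) and 6 lower (14.6% against 15.6%). Trim65 went from −1.08 to 1.86, and both starts of Trim12c, Trim12a and Trim30d were higher by 1.33 to 1.81. Of these, Trim12a and Trim12c rested on the low share of covered bins given above. Trim16 and the start of Trim46 at position 89049819 were lower by over 2, at −2.19 and −2.17. In the 4 control and 4 knock-down single libraries such directions could be set beside replicates. Trim65 there lay between −1.07 and 0.11 without and −1.39 and 0.58 with TNF-α, so the states overlapped.

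The 8 single libraries allowed fits with replicates. For TNF-α with the knock-down as a term, limma called 0% of all promoters and 0 of 41 Trim promoters. At an unadjusted p below 0.05 it listed 774 promoters (5.71%) and 2 Trim promoters (4.88%). The 2 were picked by that p, so the distance between their libraries is no separate evidence. Trim47 was higher by 1.51 ± 0.46 (SE; limma, adjusted p = 0.87) and Trim36 by 1.12 ± 0.42 (SE; limma, adjusted p = 0.87). At Trim47 the 4 treated libraries (0.53 to 2.44) all lay above the 4 non-stimulated ones (−0.61 to 0.37), whereas in the pooled sets it was 0.83 without and 0.66 with TNF-α.

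For the BAF knock-down with TNF-α as a term, limma again called 0% of all and 0 of 41 Trim promoters. At an unadjusted p below 0.05 it listed 793 promoters (5.85%) and 2 Trim promoters (4.88%), picked by that p as above. Replicate 1 of the knock-down, in both states, carries a label read as another amount of nuclease. Digestion thus differs in part with the knock-down, and its share in these values was not tested. Trim9 was higher in knock-down cells by 1.51 ± 0.38 (SE; limma, adjusted p = 0.82), from −1.35 to −0.41 in control to 0.26 to 1.40 in knock-down libraries with no overlap. The start of Trim13 at position 62218350, an ER-anchored ligase, was higher by 1.82 ± 0.72 (SE; limma, adjusted p = 0.84), with −1.31 to −0.71 in control and −0.90 to 2.02 in knock-down libraries, which overlap. The pooled fibroblast sets, without knock-down, had 1.05 and 1.99 at this start, above the control libraries. The interaction of knock-down and TNF-α also called 0% and 0 of 41. At an unadjusted p below 0.05 limma listed 766 promoters (5.65%) and 3 Trim promoters (7.32%), namely Trim32, Trim2 and Trim13 at position 62217064. At Trim32, knock-down libraries were at −0.76 and −0.21 without and 2.79 and 2.71 with TNF-α, and control libraries at 0.56 and 1.49 without and −0.16 and 0.84 with it, an interaction of 3.92 ± 0.83 (SE; limma, adjusted p = 0.86). The share of covered bins gave 0% of all and 0 of 41 in both the knock-down and the TNF-α fit by limma (679 and 599 promoters at an unadjusted p below 0.05).

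Single promoters were imprecise in these libraries. Trim7, which binds the starter protein of glycogen synthesis, ranged from −4.32 to 3.00 with 25.5 to 52% of its bins covered, and its replicates differed by up to 7.32. At the other extreme Trim31, a ligase of the gut silent in both cells, kept between −0.57 and 0.22. Its neighbours in the major histocompatibility region of chromosome 17 differed from each other. Trim40 had 0.83, 1.38, 1.37 and −0.12 in the pooled sets, Trim10 had −0.93, 0.16, 0.88 and −0.38, and Trim15 at position 37004132 had −0.84, 0.85, −1.02 and 0.26.

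**Figure D4:**
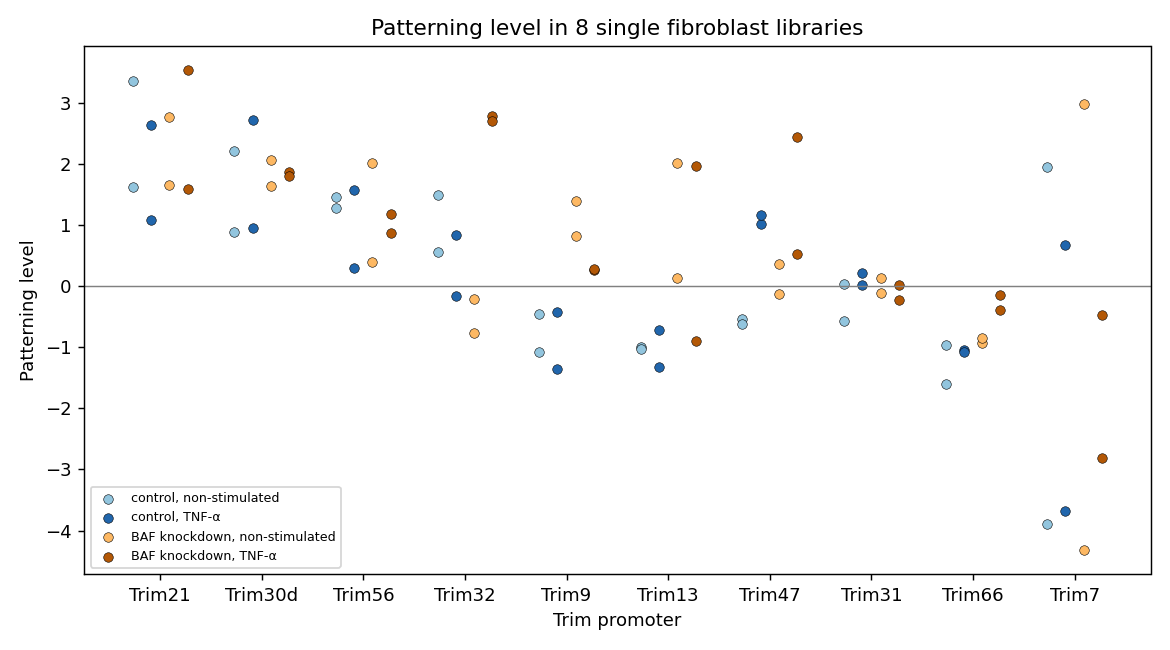
Patterning level (vertical axis) of 10 Trim promoters in the 8 single fibroblast libraries, 2 points a group, for control and BAF-knockdown cells without and with TNF-α. Trim21 and Trim30d stay above 0.5 and Trim66 below 0 in every library, whereas the replicates of Trim7 lie as far apart as −4.32 and 3.00. Trim13 is the start at position 62218350.

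Against the H3K4me1 libraries of TNF-α-treated control fibroblasts, the S7P libraries called 0% of all and 0 of 41 Trim promoters for the patterning level by limma. At an unadjusted p below 0.05 limma listed 840 promoters (6.20%) and 1 Trim promoter (2.44%). The 1 was Trim13 at position 62218350, higher by 2.79 ± 0.67 (SE; limma, adjusted p = 0.74). It had 1.22 and 2.34 with S7P and 2.40 with S5P, and −1.31 and −0.71 in these H3K4me1 libraries. The pooled H3K4me1 set of TNF-α-treated fibroblasts, which is no part of this fit, had 1.99, between the S7P values. For the share of covered bins limma called 28.7% of all promoters and 13 of 41 Trim promoters (31.7%), 4 higher and 9 lower with S7P. Trim47, Trim35, Trim12a and Trim45 were higher by 22.4 to 24.9 points relative to the library means, of which Trim47 and Trim35 were active in fibroblasts, Trim12a silent and Trim45 below the limit for active. Trim66, Trim72, Trim9, Trim54, Trim80 and the start of Trim15 at position 37004132, none of them active in fibroblasts, were lower by 21.8 to 34.8 points. Trim2 and Trim21, both active there, were lower by 33.8 and 28.6 points, and Trim30a by 40.1 ± 8.73 (SE; limma, adjusted p = 0.00017). Trim30a had 34.5, 41 and 16.5% of bins covered in the pol-II libraries and 63.5 to 89.5% in the single H3K4me1 libraries. With 1 library left out the number of calls moved over all promoters as well as at Trim promoters. Each of these fits has 1 library in an arm, assumed to vary like the pair in the other. Without centring limma called 0 of all promoters and 0 Trim promoters. The antibody cannot be told apart from the sequencing type, paired-end for pol-II and single-end for H3K4me1. The labels name control cells for these H3K4me1 libraries and not for S7P, so the cells may differ too.

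Annotated starts of the same gene could be compared at 5 genes. At Trim46, whose starts lie 698 bp apart, the downstream start at position 89049121 had 0.99, 3.05, 0.54 and 1.61 in the pooled sets and the upstream one 0.01, 0.61, 0.58 and −1.59. At Trim39 the starts are 571 bp apart and the 4 values were −0.12, 3.44, −0.27 and −0.94 for the downstream start against −0.90, 0.15, −1.13 and −0.84. At Trim13 the starts are 1286 bp apart. The start at position 62218350, in a CpG island, had 0.88, 2.04, 1.05 and 1.99 and the upstream one outside it 0.06, 0.91, 0.24 and −0.11. The higher values thus fell on the downstream start in all 4 sets at Trim13, and at Trim46 and Trim39 in 3 of 4 sets each. The windows of the 2 starts overlap at each of these genes, so their values are not independent. The starts of Trim12c and Trim15, 9 and 23 bp apart, share nearly all of their window and differed by 0.27 and 0.37 on average. The cell-type fit and the other fits above treat them as separate promoters.

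Genes that work with Trim proteins were read from fixed lists. Of TRIM proteins under other symbols 4 of 9 promoters had high coverage. Pml, which forms nuclear bodies, had levels of 1.68, 1.26, 2.26 and 1.59, and Mefv, the pyrin gene of the inflammasome, 0.82, 1.16, −0.17 and −0.08. Of the 3 high-coverage promoters of ubiquitin enzymes that serve Trim ligases, Ube2v1, a subunit of the enzyme that makes Lys63-linked chains, had 5.80, 3.81, 2.06 and 1.87. Of 7 high-coverage promoters of RIG-I and Toll-like receptor signalling partners 3, 4, 6 and 5 were patterned, and Irf3, an interferon regulatory factor, had 1.96, 1.86, 1.81 and 1.16. Of 5 promoters of Trim28 partners (heterochromatin proteins and Setdb1) 2, 3, 4 and 3 were patterned. Over all promoters the shares were 55.1, 55.9, 52 and 53.1%, and lists this small are given as counts only. The cell-type fit called 0 promoters of these 4 lists for the level. For the share of covered bins it called Bspry and Rnf207, both higher in DCs by 18.8 ± 4.90 and 24.8 ± 5.10 points (SE).

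Of the 32 Trim promoters with a score of 100 or less, 18 belonged to the PRY-SPRY genes Trim41, Trim58, Trim11, Trim25, Trim27, Trim38, Trim26, Trim62, Trim50, Trim68, Trim6, Trim34a, Trim34b, Trim75, Trim60, Trim43a, Trim43b and Trim43c. The COS genes were Trim36, Trim55, Trim63 and Trim42, PHD-bromodomain genes Trim24, Trim28 and Trim66, and genes without a RING Trim44, Trim14 and Trim29. Trim37, Trim8, Trim52 and the pseudogene Trim30e-ps1 complete them, with Trim36 and Trim66 each represented by another start than above.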

How the data were processed

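ChIP-MNase reads were aligned by the authors to the mm9 build, with up to 5 locations a read and excess duplicates removed. The aligner was bowtie by the study's methods and Bowtie2 by the submitters' processing notes, which also name bedtools. Only fragments near promoters with a single match among promoter regions were kept. Paired ends 140 to 180 bp apart and single-end reads lengthened to a fragment were counted in 10 bp bins, expressed by the authors relative to the surrounding 1 kb and averaged over neighbouring bins. The deposited signal therefore holds local occupancy without read counts. The authors' deposited annotation gives a coverage score for each promoter, taken here as fragments near the TSS in non-stimulated cells, and expression before stimulation. Its columns of expression differences upon stimulation were not used.

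Occupancies were scaled here to a mean of 1 over high-coverage promoters in every library. Patterning levels were the projection on the centred mean profile of active promoters (expression above 0.02 times the mean) of non-stimulated cells of the same type, with the fibroblast profile for pol-II. Levels were fitted over all 13559 high-coverage promoters with limma 3.58.1 in R 4.3.3 and Benjamini-Hochberg adjustment at 0.05, after tests on simulated data. The simulated shifts in level exceeded every Trim difference given from these fits. Such tests do not measure how well smaller differences would be found. The cell-type fit takes the non-stimulated and stimulated set of a cell type as its 2 libraries, so differences between states stay in its residual. Shares of covered bins were fitted the same way, a response chosen after the values had been seen. Sequences were read with Biopython 1.88 from the mm9 reference.

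Members and lists were chosen with earlier results of these data known. Genes were named with values where they passed a fit, had the 6 highest or lowest mean levels, the 6 largest differences of 1 sign between cell types in each direction or the largest LPS difference in each direction, had several starts, or were interferon-linked or PHD-bromodomain genes. Further genes, among them those at an unadjusted p below 0.05 and Trim65, Trim16, Trim45, Trim7, Trim31 and the NHL genes, were added after their values were seen. Patterning levels gave no sign that replicate numbers pair the libraries: deviations of libraries with the same number correlated at −0.0089 to 0.014 in 10 pairs of groups. These levels are imprecise, so pairing is not excluded. The mean share of covered bins was higher in replicate 1 than in replicate 2 in each group of single H3K4me1 libraries. The shares were 74.9 and 69.7%, 73.4 and 63.5%, 78.1 and 67.9%, and 76.0 and 68.3%. With S7P the order was reversed (69.2 and 80.0%). File names of the BAF-knockdown replicate 1 libraries carry another label than the rest, read here as the amount of nuclease. The authors' list of replicates and the labels differ for pol-II S5P, which was used as 1 library. A list of markers of other cell types is not reported here.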

Additional observations from a re-analysis of the deposited data

How the results depend on the processing

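Of 113 alternative settings, 62 were fits of the patterning level, in which limma called 0 Trim promoters, fits with a replicate block included (knock-down, TNF-α, interaction and S7P, 0 each). As 0 of all promoters were called in them too, this says nothing about stability. Of the other 51 settings, 35 left a result within the spread between libraries or, for counts, within 1.5 times. With bins covered as the response, chosen after the data were seen, the cell-type fit called 8 Trim promoters, 0 without centring, 14 without the coverage filter, and 4 to 7 with 1 set left out, where the lone set is assumed to vary like the other cell type. The S7P fit of the same response called 13, 0 without centring, 14 with the replicate block, and 2 to 15 with 1 library left out. The median NDR ratio in non-stimulated DCs moved from 0.81 to 0.65 with −100 to 50 bp over the whole 2 kb, and the median level in non-stimulated fibroblasts from 0.17 to 0.43 with low-coverage promoters included. Counts of Trim promoters higher after LPS moved from 10 to 3 among the 19 with at least 80% of bins covered in all pooled sets (15.8% of these), and lower from 3 to 1 on square roots of occupancy. After TNF-α higher counts moved from 11 to 7 (square root) and 6 (at least 80% of bins), and lower from 6 to 2 and 3. Both counts at 80% of bins follow from the smaller number of promoters, since they are 31.6 and 15.8% of 19, against 26.8 and 14.6% of 41. For the other moves the cause was not tested. Single promoters were imprecise: Spearman's rho of levels between replicates over all promoters was 0.264 to 0.379.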
